A study of Homo sapiens with 9 samples.

Results

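The ID proteins, the E proteins they bind and a set of further E-box or N-box binding factors were described in H1975 cells, an established human lung adenocarcinoma line, from RNA-Seq read counts. The members were the 10 genes ID1, ID2, ID3, ID4, TCF3, TCF4, TCF12, HES1, USF1 and USF2, out of 61544 genes counted. They were chosen by name, with earlier results of these data known. Of these 10 genes, 9 passed the filter on low counts and were among the 18653 genes tested, and TCF4 did not pass. All 9 libraries came from cells given si78, which targets the 3′ UTR of the GRP78 transcript and lowers the cells' own GRP78, for 24 h and then a plasmid for 48 h. The plasmid was empty pcDNA3 (Vector) in 3 libraries, FLAG-tagged wild-type GRP78, named F-78(WT), in 3, and FLAG-tagged GRP78 with alanines in place of lysines of the nuclear localization signal in the other 3. The latter is F-78(NLS Mut), called the mutant where it stands beside F-78(WT). No library of cells without si78 was analysed here, and nothing in the labels says that the libraries of a group came from separate cultures, so p-values measure only the spread between these libraries, which may be technical.

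GRP78 is a chaperone of the ER that can also be found in the nucleus, and the study asked whether nuclear GRP78 alters transcription through its binding to ID2. ID proteins hold a helix-loop-helix domain but no basic DNA-binding region. They pair with E proteins, the basic helix-loop-helix (bHLH) factors made from TCF3, TCF4 and TCF12, and the pairs cannot bind the E-box, a short DNA motif spelled CANNTG. ID genes are known targets of BMP and SMAD signalling and are commonly high in dividing and undifferentiated cells. HES1, a NOTCH target, is a bHLH repressor that binds the related N-box. USF1 and USF2 bind E-boxes, chiefly CACGTG, through a bHLH and leucine zipper domain. RNA-Seq counts give the mRNA of these genes, while the amount of ID2 protein and its binding to GRP78 were not measured in these files.

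The 250 bases before the start of the 4 ID genes and of HES1 are shown because the members bind the E-box and the N-box, or block binding to them, and these letters can be read in their own promoters. The sequences are those of RefSeq on GRCh38.p14, read 5′ to 3′ on the strand of the gene. In ID2 (chr2:8681806-8682055, plus strand) and ID4 (chr6:19837120-19837369, plus strand) capitals mark the single E-box.
ID2: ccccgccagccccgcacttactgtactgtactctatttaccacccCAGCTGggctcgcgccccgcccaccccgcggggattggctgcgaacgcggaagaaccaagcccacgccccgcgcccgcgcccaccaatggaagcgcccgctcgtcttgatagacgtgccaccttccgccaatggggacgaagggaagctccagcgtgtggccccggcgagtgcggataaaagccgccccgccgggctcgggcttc
ID4: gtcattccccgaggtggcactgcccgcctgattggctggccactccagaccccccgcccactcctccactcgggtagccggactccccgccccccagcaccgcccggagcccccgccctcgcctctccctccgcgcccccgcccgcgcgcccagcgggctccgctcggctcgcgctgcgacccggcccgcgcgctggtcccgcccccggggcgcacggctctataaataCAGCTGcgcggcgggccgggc
In ID1 (chr20:31605039-31605288, plus strand) and ID3 (chr1:23559502-23559751, minus strand) the letters CANNTG do not occur, so nothing is in capitals.
ID1: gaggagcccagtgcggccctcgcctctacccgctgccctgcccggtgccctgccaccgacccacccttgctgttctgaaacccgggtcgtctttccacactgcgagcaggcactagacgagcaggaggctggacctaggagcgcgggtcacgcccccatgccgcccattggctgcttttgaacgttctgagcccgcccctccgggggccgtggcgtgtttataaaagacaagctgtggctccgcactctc
ID3: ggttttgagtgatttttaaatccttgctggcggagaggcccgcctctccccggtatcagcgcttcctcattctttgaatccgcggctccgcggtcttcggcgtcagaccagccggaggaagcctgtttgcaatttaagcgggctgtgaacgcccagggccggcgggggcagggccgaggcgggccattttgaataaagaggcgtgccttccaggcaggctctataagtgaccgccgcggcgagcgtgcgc
In HES1 (chr3:194135898-194136147, plus strand) capitals mark the N-boxes, searched as CACNAG or its reverse complement CTNGTG.
HES1: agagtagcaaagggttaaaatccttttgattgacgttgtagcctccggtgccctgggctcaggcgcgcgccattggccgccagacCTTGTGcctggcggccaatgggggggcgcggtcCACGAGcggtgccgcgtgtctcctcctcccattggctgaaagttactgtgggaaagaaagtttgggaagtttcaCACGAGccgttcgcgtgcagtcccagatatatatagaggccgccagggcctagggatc

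The E-box of ID2 and that of ID4 had the same letters, CAGCTG, and started 205 bases before the ID2 start and 21 bases before the ID4 start. HES1 held N-boxes starting 165, 132 and 58 bases before its start, while ID1 held 1 N-box, CACTAG, at 140 bases. CANNTG reads the same as a motif on both strands and was present in 61.8% of all 35116 RefSeq windows of this length and in 55.5% of the 17350 windows of tested genes. The more specific CAGCTG was in 13.99% of all windows, CACGTG in 6.35%, and the N-box in 32.0%. All 10 members had entries, with 24 windows between them, since several genes have more than 1 start, and 12 of the 24 windows held CANNTG. The most windows were those of TCF4, which did not pass the filter on low counts. Of the windows of genes called higher with F-78(WT) than with the mutant, 27 of 56 held CANNTG (48.2%). Of those of genes called lower, 28 of 46 did (60.9%). The former windows belong to 40 of the 56 genes called higher and the latter to 27 of the 38 called lower. The other called genes had no window under their symbol. These shares are a description, and windows of 1 gene can overlap. A match of letters is not a bound site, and the shares were not tested against each other.

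Each library had 17671055 to 27476298 reads counted on genes. HSPA5, the gene of GRP78, checked which libraries had a GRP78 plasmid: its mean was 378 counts per 1000000 counted reads (CPM) with vector, 5664 with F-78(WT) and 4961 with F-78(NLS Mut). Both GRP78 plasmids carry this gene, so its count does not check which of them a library had. F-78(WT) was 1.14-fold above the mutant, which edgeR did not call with all libraries and the filter (adjusted p = 0.079). It was called by DESeq2 (adjusted p = 0.044), and by edgeR without a filter on low counts (adjusted p = 0.012), with only these 2 groups (adjusted p = 0.0095), with the GC and length correction (adjusted p = 0.014) and without vector replicate 1 (adjusted p = 0.0039). EGFR, the gene whose transcription the study followed, was at 333, 356 and 364 CPM in the same order of groups and was called in no comparison with all 9 libraries (edgeR adjusted p = 0.36 to 0.89). Its F-78(NLS Mut) libraries all lay above its vector libraries (log2 fold change 0.13, edgeR unadjusted p = 0.033). Of all tested genes, 18.1% did not overlap between these groups. DESeq2 without vector replicate 1 called EGFR higher in the mutant than in vector (0.16, adjusted p = 0.038). That setting called 14.7% of the 9002 genes to which it gave an adjusted p. Of 9 epithelial and lung adenocarcinoma markers, 8 were at 1 CPM or more in every group, including EPCAM, KRT8 and NKX2-1, and SFTPB was not. Of the blood markers none reached 1 CPM, and CD3E and CD68 were at 0 in all 9 libraries. Of 4 fibroblast markers only PDGFRB reached 1 CPM and DCN was at 0, while 2 of 3 endothelial markers, PECAM1 and CDH5, did, and the summed endothelial level was low, with a range of 5.29 to 8.05 CPM. Vector replicate 1 stood apart from the other vector libraries in how counts varied with GC content: its slope over 18187 genes was -0.05 on the log2 scale for each 10 points of GC, against 0.11 and 0.12 in vector replicates 2 and 3, and the slopes of the other 6 libraries ran from -0.08 to 0.03. Where leaving out that library changed the call of a member against vector, both values are given.

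The mRNA of the ID genes, their E-protein partners, HES1 and the USF genes was close to the same level in the 3 groups, and none of the 9 tested members passed an adjusted p of 0.05 in any comparison. In edgeR's quasi-likelihood test of all 18653 genes, with p-values adjusted by the Benjamini-Hochberg method, the members' adjusted p-values ran from 0.30 to 1.00 for F-78(WT) against the mutant, from 0.16 to 0.94 for F-78(WT) against vector and from 0.27 to 0.95 for F-78(NLS Mut) against vector. Over all tested genes, 0.504%, 0.558% and 0.793% were called in these comparisons, respectively, so none of 9 is close to the share over all genes. At an unadjusted p under 0.05, edgeR had 2, 2 and 1 of the 9 members, against 11.6%, 11.7% and 12.2% of all tested genes. DESeq2 called none of the 10 members in any of the 3 comparisons, with 1, 2 and 2 at an unadjusted p under 0.05. Every member's difference was small, at most 0.22 on the log2 scale, with standard errors of 0.067 to 0.139.

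A missed threshold does not show that the levels were equal, so the size that a change would have needed is given with the intervals. For a member to be called, its log2 fold change would have had to reach 0.27 to 0.58, depending on the gene and the comparison. The farthest bound of any member's 95% interval was 0.44, so changes of 1 on the log2 scale, which is a doubling, lay outside every interval for these libraries. The median log2 fold change over the 9 members was 0.04 for F-78(WT) against the mutant, beside -0.01 over all tested genes, and -0.06 in both comparisons with vector, beside 0.00.

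**Figure D1:**
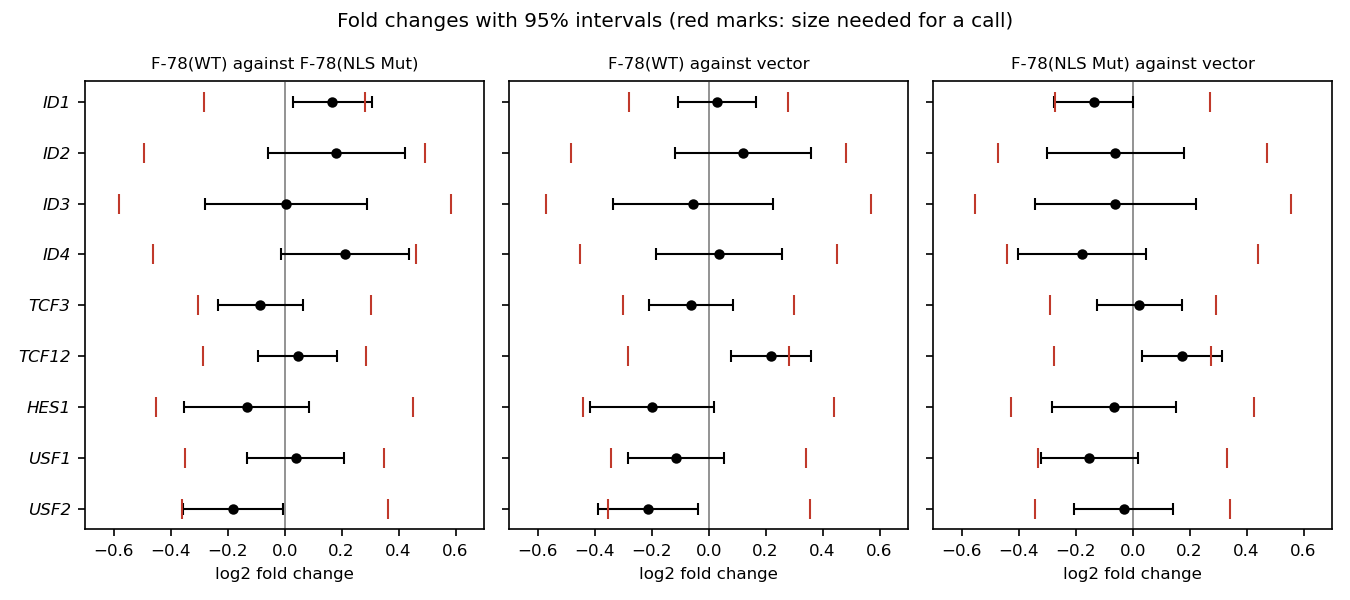
Log2 fold change (x axis) of the 9 tested members (y axis) in the 3 comparisons, as points with 95% intervals from the edgeR fit, with red marks at the size needed for a call in either direction. Every point lies inside its red marks, and the intervals that lie to 1 side of 0, before adjustment, are those of TCF12 against vector, of USF2 for F-78(WT) in both of its comparisons and of ID1 for F-78(WT) against the mutant.

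ID2 (ENSG00000115738.10, chr2:8678845-8684453, plus strand), the ID protein that binds GRP78 in the study, was measured at 18.3, 18.8 and 19.1 CPM in the vector libraries. It was at 23.3, 18.5 and 19.3 CPM with F-78(WT), and at 17.6, 17.6 and 18.8 CPM with F-78(NLS Mut). Only F-78(WT) replicate 1 was above 20 CPM, and the ranges of all 3 groups overlapped, so no order of the groups held beyond their spread. The log2 fold change of F-78(WT) against the mutant was 0.18 (SE 0.12, edgeR adjusted p = 0.60), with a 95% interval from -0.06 to 0.42, which is 0.96 to 1.34 as a fold. Against vector it was 0.12 (SE 0.12) for F-78(WT) and -0.06 (SE 0.12) for F-78(NLS Mut), with edgeR adjusted p-values of 0.75 and 0.90. The ID2 values for F-78(WT) rested on its replicate 1: without that library they were 0.079 against the mutant and 0.014 against vector, and without F-78(WT) replicate 2 they were 0.26 and 0.19, with no call in either case. Without mutant replicate 3 the difference of the mutant from vector was -0.099. ID2 shares 38 exonic bases, 1.72% of its exonic length, with the antisense gene ID2-AS1 on the other strand, and the counting did not use strand.

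ID1 (ENSG00000125968.9, chr20:31605283-31606515, plus strand), which like ID2 blocks E proteins and is a direct target of BMP signalling, gave 138, 149 and 148 CPM with vector. Its levels were 149, 161 and 135 CPM with F-78(WT) and 125, 134 and 137 CPM with F-78(NLS Mut). All 3 F-78(NLS Mut) libraries were below all 3 vector libraries, while F-78(WT) overlapped both. The log2 fold change was 0.17 (SE 0.07, edgeR adjusted p = 0.30) for F-78(WT) against the mutant and -0.14 (SE 0.07, edgeR adjusted p = 0.42) for F-78(NLS Mut) against vector. With the GC and length correction the latter was -0.039, and the difference of F-78(WT) from vector, 0.03 without it, was 0.15, neither of them called. Among all tested genes, 18.1% did not overlap between F-78(NLS Mut) and vector, 17.7% between F-78(WT) and the mutant and 13.1% between F-78(WT) and vector. Of the 9 members, 2, 1 and 1 did not overlap in these comparisons.

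ID3 (ENSG00000117318.9, chr1:23557918-23559794, minus strand) had the widest spread for its level among the ID genes, with an SD of 6.87 around a mean of 28.4 CPM in the vector group. It was at 21.3, 35.1 and 28.9 CPM with vector, at 22.6, 32.7 and 26.8 CPM with F-78(WT) and at 26.0, 29.6 and 26.3 CPM with F-78(NLS Mut). The spread within vector was wider than any distance between group means, and the log2 fold change of F-78(WT) against the mutant was 0.00 (95% interval -0.28 to 0.29). ID4 (ENSG00000172201.12, chr6:19837386-19840684, plus strand), which encodes a further ID protein of the same build, was at 23.98, 26.5 and 28.7 CPM with vector. It was at 28.9, 27.2 and 25.0 CPM with F-78(WT) and at 21.7, 22.2 and 26.3 CPM with F-78(NLS Mut). F-78(NLS Mut) replicate 3 lay within the F-78(WT) range and the other 2 below it, with a log2 fold change of F-78(WT) against the mutant of 0.21 (SE 0.11, edgeR adjusted p = 0.47).

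**Figure D2:**
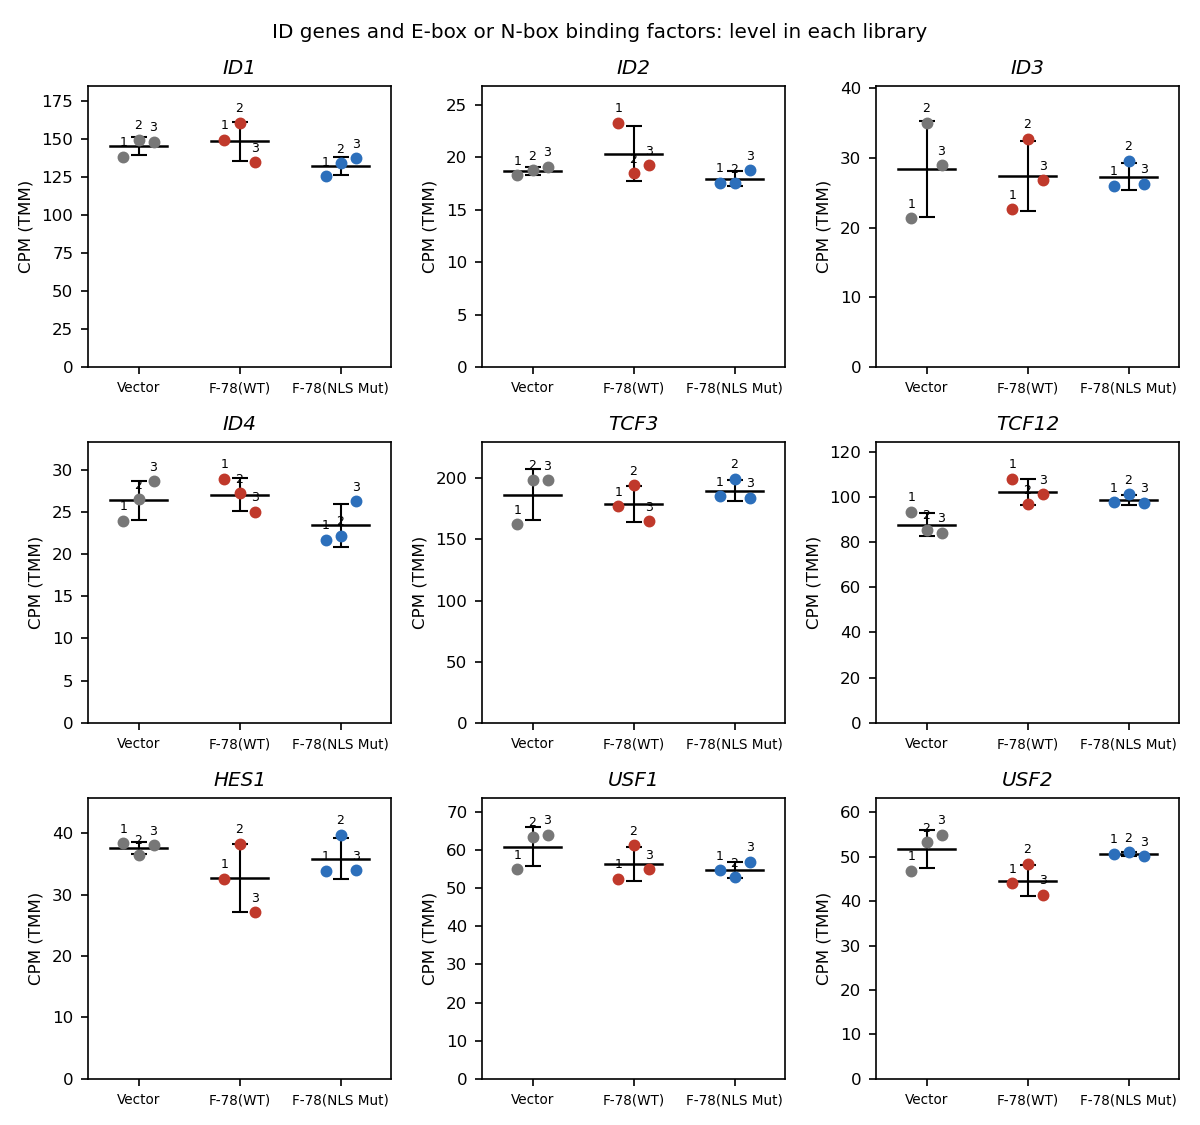
CPM with TMM library sizes (y axis, from 0) of the 9 tested members in each library of the 3 groups (x axis), with the replicate number above each point and lines for the mean and SD of 3 libraries. The 3 groups lie at similar heights in every panel, TCF12 is lower in the vector libraries than in the others, and ID3 spreads from 21.3 to 35.1 CPM within the vector group.

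TCF12 (ENSG00000140262.18, chr15:56918623-57299281, plus strand), which encodes the E protein HEB, came nearest to a call. It was at 93.4, 85.4 and 84.1 CPM with vector, at 108, 96.7 and 101 CPM with F-78(WT) and at 97.5, 101 and 97.4 CPM with F-78(NLS Mut). All 6 libraries with a GRP78 plasmid were above all 3 vector libraries. Against vector, the log2 fold change was 0.22 (SE 0.07, edgeR adjusted p = 0.16) for F-78(WT) and 0.17 (SE 0.07, edgeR adjusted p = 0.27) for F-78(NLS Mut), and between the GRP78 plasmids it was 0.05 (SE 0.07). Without vector replicate 1, edgeR called TCF12 higher with F-78(WT) than with vector, at 0.26 (adjusted p = 0.011), but not in F-78(NLS Mut), at 0.21 (adjusted p = 0.053), where DESeq2 called it at 0.22 (adjusted p = 0.017). Leaving that library out raised the calls over all genes as well. For F-78(WT) against vector, edgeR called 1256 of 19857 tested genes (6.33%). DESeq2 called 1426 of the 10977 genes to which it gave an adjusted p (13.0%). For F-78(NLS Mut) against vector, DESeq2 called 1323 of 9002 such genes (14.7%). The DESeq2 shares rest on fewer genes and are not on the scale of the edgeR share. With a correction of the counts for GC content and length, the TCF12 difference of F-78(WT) from vector was 0.16 (edgeR adjusted p = 0.18).

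TCF3 (ENSG00000071564.17, chr19:1609290-1652605, minus strand), which encodes the E proteins E12 and E47, was at 162, 199 and 199 CPM with vector. It was at 177, 194 and 165 CPM with F-78(WT) and at 185, 200 and 184 CPM with F-78(NLS Mut). The low vector value was that of replicate 1, and the groups overlapped in every comparison. The log2 fold change of F-78(WT) against the mutant was -0.09 (95% interval -0.23 to 0.06). TCF4 (ENSG00000196628.20, chr18:55222331-55664787, minus strand), the third E-protein gene, had 4 reads in vector replicate 1, 3 in F-78(WT) replicate 2, 3 in F-78(NLS Mut) replicate 1 and 0 in the other 6 libraries. These counts are at or just over the limit of 3 reads that a count of 0 allows, 0.109 to 0.170 CPM, so no fold is given. The E-protein mRNA of these libraries was therefore that of TCF3 and TCF12 at this depth.

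HES1 (ENSG00000114315.4, chr3:194136145-194138732, plus strand), a repressor that can act on its own promoter, was at 38.4, 36.5 and 38.0 CPM with vector. It was at 32.6, 38.3 and 27.2 CPM with F-78(WT) and at 33.9, 39.8 and 34.0 CPM with F-78(NLS Mut). F-78(WT) replicate 3 held the lowest value and F-78(WT) replicate 2 lay within the vector range. Set against vector, F-78(WT) gave a log2 fold change of -0.20 (SE 0.11, edgeR adjusted p = 0.48) and, set against the mutant, one of -0.13 (SE 0.11). These values rested on single libraries: without F-78(WT) replicate 3 they were -0.081 and -0.011, without F-78(WT) replicate 2 they were -0.33 and -0.26, and without mutant replicate 2 the second was -0.046, with no call in any case.

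USF2 (ENSG00000105698.16, chr19:35268978-35279821, plus strand) was at 46.8, 53.3 and 55.0 CPM with vector, at 44.0, 48.4 and 41.5 CPM with F-78(WT) and at 50.7, 51.1 and 50.1 CPM with F-78(NLS Mut). All 3 F-78(WT) libraries were below all 3 F-78(NLS Mut) libraries, and F-78(WT) replicate 2 lay above vector replicate 1. The log2 fold change of F-78(WT) was -0.18 (SE 0.09, edgeR adjusted p = 0.41) against the mutant and -0.21 (SE 0.09, edgeR adjusted p = 0.30) against vector. Without vector replicate 1 the latter was -0.28 and was called (edgeR adjusted p = 0.043), and with the GC and length correction it was -0.10 and was not (edgeR adjusted p = 0.67). USF1 (ENSG00000158773.14, chr1:161039251-161045977, minus strand), its dimer partner, was at 54.9, 63.5 and 64.0 CPM with vector. It was at 52.5, 61.2 and 55.0 CPM with F-78(WT) and at 54.7, 52.8 and 57.0 CPM with F-78(NLS Mut), with overlap in every comparison. Its log2 fold change of F-78(WT) against the mutant was 0.04 (95% interval -0.13 to 0.21).

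Within the vector group, 7 of the 9 tested members were lower in replicate 1 than in replicates 2 and 3. They include TCF3 and USF2, the most GC-rich members at 62.2% and 61.4% of the bases of all their transcripts, and also the less GC-rich ID2 and ID4. TCF12, the tested member with the lowest GC content at 43.8%, was higher there, as was HES1. With the GC and length correction no member was called in any comparison. Whether GC content accounts for any difference of a member was not tested beyond these values.

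**Figure D3:**
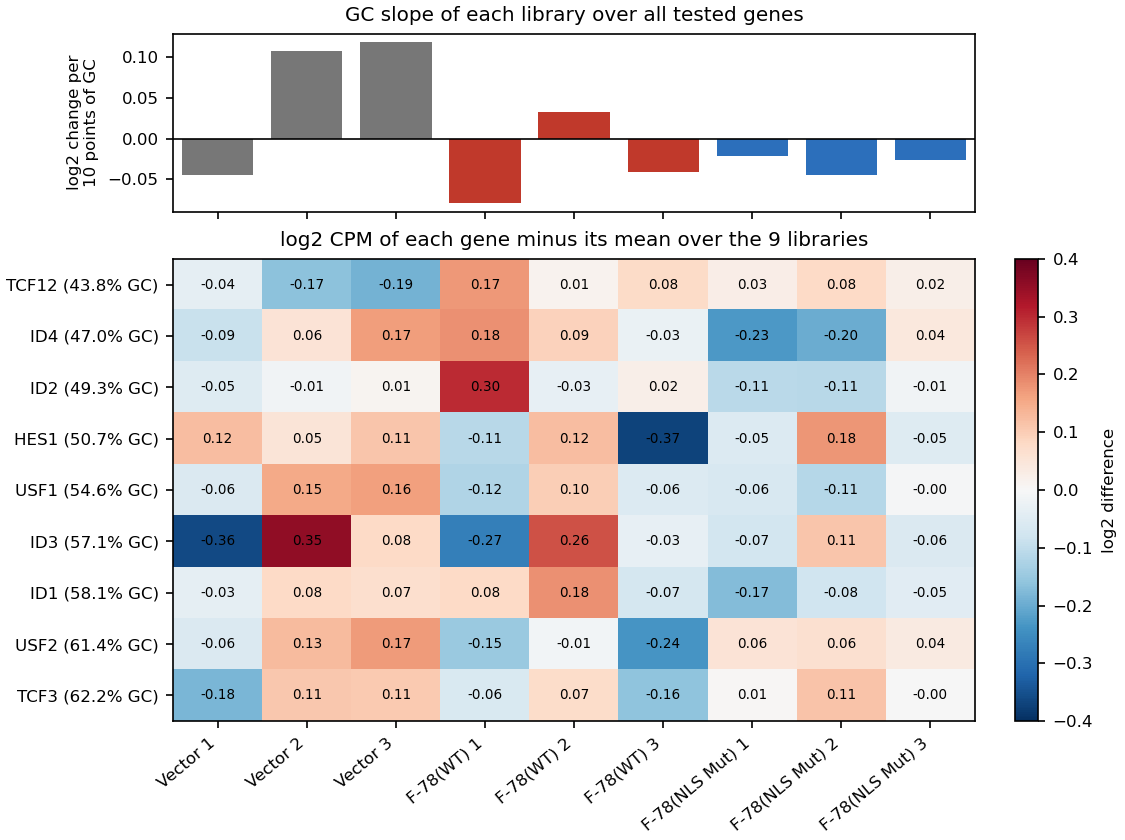
Upper panel: slope of log2 CPM on GC content (y axis, log2 change per 10 points of GC) for each library (bars, coloured by group). Lower panel: log2 CPM of each tested member minus its mean over 9 libraries, with the members (rows) ordered from 43.8% to 62.2% GC and the libraries (columns) in the same order as the bars. Vector replicates 2 and 3 have the steepest slopes, 0.11 and 0.12, and TCF3 and USF2 are above their means in both.

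Levels were compared between genes only after division by length. Per kb of all exons of the gene, ID1 was by far the most abundant member, at 118 ± 5.00 CPM per kb with vector, 120 ± 10.6 with F-78(WT) and 107 ± 4.87 with F-78(NLS Mut) (SD, n = 3). ID3 followed among the ID genes at 15.8, 15.2 and 15.2 CPM per kb in the same order of groups, then ID4 at 11.3, 11.5 and 9.98, and ID2 at 8.49, 9.24 and 8.15. ID1 therefore made up 75.5% to 78.7% of the summed ID level per kb in the 9 libraries, and ID2 4.99% to 6.75%. TCF3 stood at 30.7 CPM per kb with vector, USF1 at 26.0, HES1 at 18.3, USF2 at 10.4 and TCF12 at 9.28. In the vector libraries the ranges of neighbours overlapped for TCF3 and USF1, for HES1 and ID3, for ID3 and ID4, for ID4 and USF2, and for USF2 and TCF12, so the order within these pairs did not hold beyond the spread.

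The length used decides part of this order. Per kb of the median coding transcript, a length chosen after the data were seen, TCF3 stood at 107 CPM per kb with vector, beside 130 for ID1, and TCF12 stood at 48.4 in place of 9.28, since its exons add up to much more than 1 transcript. ID2 was then at 13.7 CPM per kb, above ID4. ID1 made up 71.6% to 75.3% of the summed ID level on that scale and ID2 6.95% to 9.42%. The sum of the 4 ID genes over the sum of TCF3, TCF4 and TCF12 was 3.27 to 3.99 per kb of exons and 0.973 to 1.19 per kb of transcript. On the first scale this ratio was 3.89, 3.84 and 3.78 with vector, 3.86, 3.99 and 3.79 with F-78(WT) and 3.27, 3.27 and 3.58 with F-78(NLS Mut). The 3 F-78(NLS Mut) libraries were thus the lowest on that scale, and they were also the lowest per kb of transcript, at 0.973, 0.977 and 1.06 against 1.11 to 1.19 in the other 6. The ratio was looked at after the values were seen and was not tested, and it rests mostly on ID1 and TCF3.

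**Figure D4:**
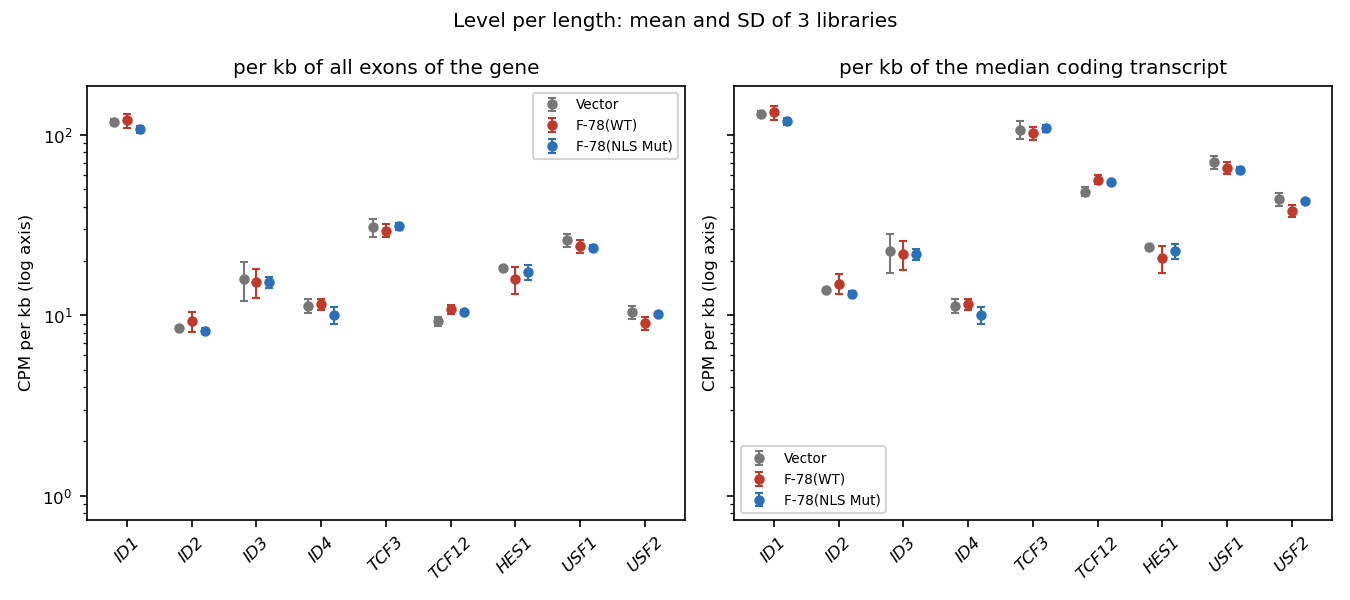
Mean and SD of 3 libraries per group (colours) of CPM per kb (y axis, log scale) for the 9 tested members (x axis), with length taken as all exons of the gene (left) or the median coding transcript (right). ID1 is highest in both panels, at 118 and 130 CPM per kb with vector, while TCF12 and USF2 rank higher on the right.

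The wider bHLH family and possible inputs to these genes were described from lists, which were chosen with earlier results of these data known. Of 85 other bHLH genes, 50 were tested, and edgeR called 1 of them lower with F-78(WT) than with the mutant, 3 lower with F-78(WT) than with vector and none in F-78(NLS Mut) against vector. Over all tested genes, 0.504%, 0.558% and 0.793% were called, respectively. At an unadjusted p under 0.05, edgeR had 16, 11 and 10 of the 50 in these comparisons, beside 11.6%, 11.7% and 12.2% of all tested genes. The median log2 fold change of the 50 was 0.01, 0.03 and 0.02 in the 3 comparisons. MYC, which binds E-boxes with MAX, was at 431, 537 and 502 CPM with F-78(WT), below its range of 678 to 731 CPM with F-78(NLS Mut) and of 603 to 749 CPM with vector. Its log2 fold change was -0.53 (edgeR adjusted p = 9.5e-05) against the mutant and -0.49 (edgeR adjusted p = 0.00024) against vector. BHLHA15, known as MIST1, a factor of secretory cells, was at 13.4, 15.4 and 10.4 CPM with F-78(WT), at 18.0, 19.0 and 17.2 CPM with F-78(NLS Mut) and at 20.5, 26.3 and 28.2 CPM with vector.

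The 3 groups did not overlap for BHLHA15, and F-78(WT) fell by 0.93 (SE 0.14, edgeR adjusted p = 0.00045) against vector. Its differences of F-78(WT) from the mutant, -0.46, and of F-78(NLS Mut) from vector, -0.47, were not called (edgeR adjusted p = 0.14 and 0.10). The latter was called by edgeR without a filter on low counts (adjusted p = 0.025). HES4, of the family of HES1, was at 18.0, 31.1 and 21.0 CPM with F-78(WT) and at 30.3, 37.7 and 37.1 CPM with vector. F-78(WT) replicate 2 lay inside the vector range, and the fall of 0.58 on the log2 scale was called at an edgeR adjusted p of 0.043. With the GC and length correction it was -0.21 and not called (edgeR adjusted p = 0.42). The call was also lost (edgeR adjusted p = 0.064 to 0.34) without vector replicate 2 or 3, without F-78(WT) replicate 1 or 3, and without any 1 library of the mutant. With only the 2 groups compared it was lost too (edgeR adjusted p = 0.14). Without vector replicate 1, BHLHA15 was called lower in the mutant than in vector, at -0.60 (edgeR adjusted p = 0.0058), and lower with F-78(WT) than with the mutant, at -0.46 (edgeR adjusted p = 0.0497). Without F-78(WT) replicate 2, HES4 was called lower with F-78(WT) than with the mutant, at -0.59 (edgeR adjusted p = 0.020).

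Of 31 genes listed for BMP, TGF-β and SMAD signalling, 26 were tested. The list includes inputs to the ID genes, and whether each of its genes acts on them was not tested. At an unadjusted p under 0.05, edgeR had 5, 7 and 4 of the 26 in the 3 comparisons, beside 11.6%, 11.7% and 12.2% of all tested genes. With all libraries, edgeR called none for F-78(WT) against the mutant, 2 for F-78(WT) against vector and none for F-78(NLS Mut) against vector. Over all tested genes, 0.504%, 0.558% and 0.793% were called, respectively. GDF15, a stress-induced ligand of the TGF-β superfamily, was lower with F-78(WT) than with vector, at 56.1, 69.9 and 59.3 CPM against 78.6, 81.9 and 89.1 CPM, and its log2 fold change was -0.43 (SE 0.08, edgeR adjusted p = 0.0098). TGFB2, a TGF-β ligand, was higher in F-78(WT), at 67.5, 62.7 and 66.5 CPM against 50.03, 53.3 and 53.5 CPM with vector, and its log2 fold change was 0.33 (SE 0.08, edgeR adjusted p = 0.043). In F-78(NLS Mut) it was at 69.5, 61.8 and 62.7 CPM, a difference from vector of 0.30 that was not called (edgeR adjusted p = 0.053). DESeq2 with all libraries called this difference (adjusted p = 0.0085). So did edgeR without a filter on low counts (adjusted p = 0.045), at 1 CPM or more in every library (adjusted p = 0.041) and with the replicate block (adjusted p = 0.042). The call of TGFB2 in F-78(WT) was lost with the GC and length correction (0.25, edgeR adjusted p = 0.089). It was lost as well, at edgeR adjusted p-values of 0.067 to 0.22, without vector replicate 2 or 3, without F-78(WT) replicate 1 or 3 and without any 1 mutant library. Library size alone (edgeR adjusted p = 0.061) and only the 2 groups compared (edgeR adjusted p = 0.14) gave no call either. Without vector replicate 1, TGFB2 was called in the mutant (0.27, edgeR adjusted p = 0.042). The call of GDF15 was lost without vector replicate 2 or 3 and without F-78(WT) replicate 1 or 3 (edgeR adjusted p = 0.058 to 0.14). With only the 2 groups compared it was lost too (edgeR adjusted p = 0.051). Without F-78(WT) replicate 2, GDF15 was called against the mutant too (-0.36, edgeR adjusted p = 0.041), as it was with all libraries and the GC and length correction (-0.25, edgeR adjusted p = 0.032) and by DESeq2 without vector replicate 1 (-0.26, adjusted p = 0.048).

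Of 26 genes of NOTCH signalling, the input to HES1, 22 were tested and edgeR called none in any comparison, with 3, 3 and 2 at an unadjusted p under 0.05. The median log2 fold change of these 22 genes was 0.00, 0.02 and 0.02. All 8 genes of the turnover of ID proteins, which are short-lived and degraded by the proteasome, were tested and none was called, with 2, 1 and 1 at an unadjusted p under 0.05. Beside both lists, 11.6%, 11.7% and 12.2% of all tested genes had an unadjusted p under 0.05, and 0.504%, 0.558% and 0.793% were called.

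Of 17 genes that E-box factors are known to regulate in the cell cycle and in epithelia, 16 were tested. CDH1, which encodes E-cadherin and is repressed through E-boxes by several factors, was at 253, 261 and 258 CPM with F-78(NLS Mut). It was at 339, 299 and 296 CPM with F-78(WT) and at 332, 293 and 296 CPM with vector, so that F-78(NLS Mut) lay below every other library. CDH1 had a log2 fold change of 0.27 (SE 0.06, edgeR adjusted p = 0.036) for F-78(WT) against the mutant and -0.25 (SE 0.06, edgeR adjusted p = 0.044) for F-78(NLS Mut) against vector, while F-78(WT) and vector differed by 0.02. Leaving out single libraries gave 0.21 to 0.32 for the first of these, and the call ended without F-78(WT) replicate 1 or 3 and without any 1 mutant library (edgeR adjusted p = 0.058 to 0.20). The call of the mutant against vector ended without vector replicate 2 or 3, F-78(WT) replicate 3 or any 1 mutant library (edgeR adjusted p = 0.057 to 0.19). ODC1, the polyamine synthesis enzyme and a MYC target, was at 213, 221 and 233 CPM with F-78(WT) against 283, 310 and 268 CPM with F-78(NLS Mut), a log2 fold change of -0.37 (SE 0.06, edgeR adjusted p = 0.0023). Without mutant replicate 2 it was -0.31 and not called (edgeR adjusted p = 0.088), and without vector replicate 1 ODC1 was called between F-78(WT) and vector (-0.23, edgeR adjusted p = 0.00999). With all libraries, no gene of this list was called between F-78(WT) and vector, beside 0.558% of all tested genes. Of the 16 genes, edgeR had 4, 4 and 7 at an unadjusted p under 0.05 for F-78(WT) against the mutant, F-78(WT) against vector and the mutant against vector, and 6, 3 and 9 did not overlap between the groups, beside 17.7%, 13.1% and 18.1% of all tested genes. Over all the lists, without vector replicate 1 edgeR called 18 genes in place of 5 for F-78(WT) against vector and 15 in place of 1 for the mutant against vector, most of which are not named here.

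**Figure D5:**
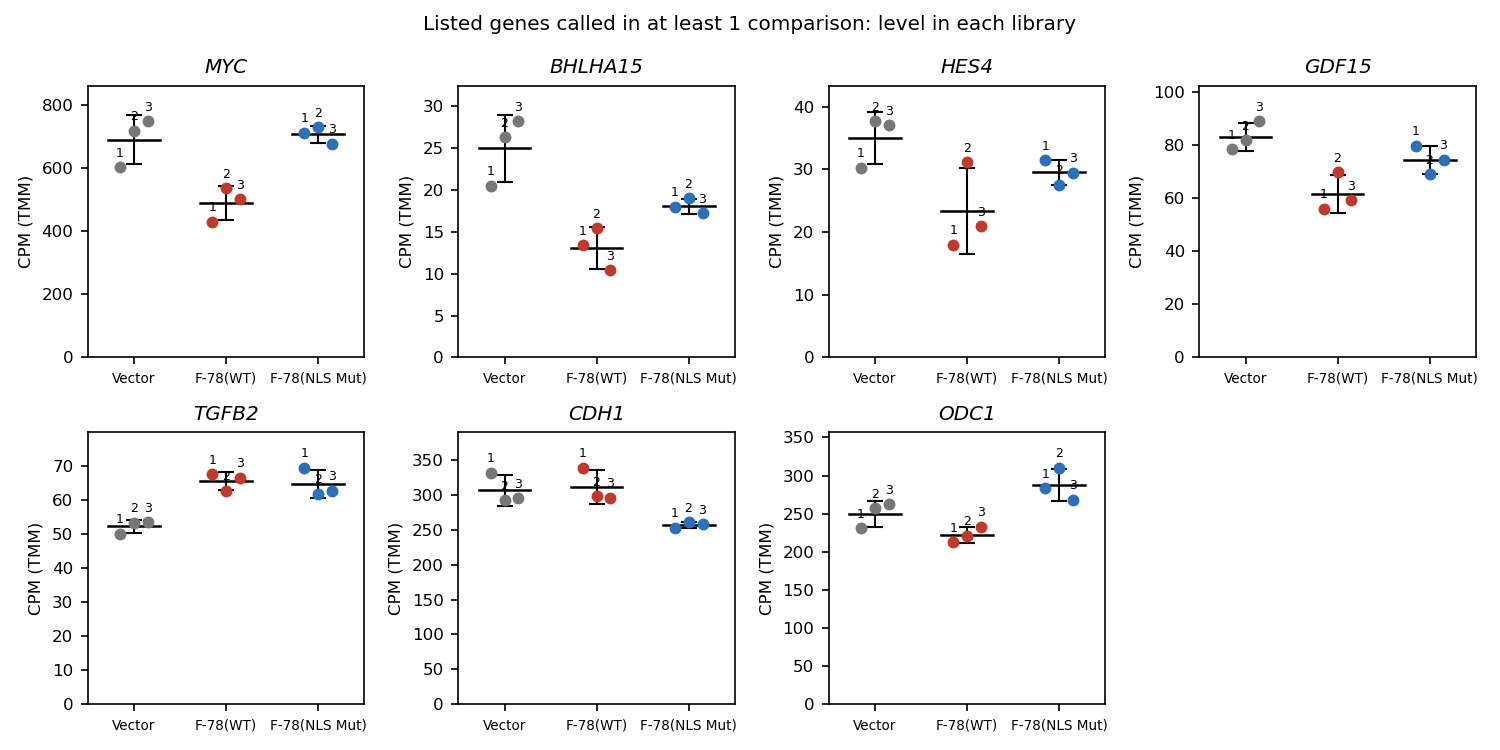
CPM with TMM library sizes (y axis, from 0) of the 7 listed genes called in at least 1 comparison, in each library of the 3 groups (x axis), with the replicate number above each point and lines for the mean and SD of 3 libraries. MYC and ODC1 are lowest with F-78(WT), CDH1 is lowest with F-78(NLS Mut), and HES4 overlaps between F-78(WT) and vector through F-78(WT) replicate 2.

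The genes whose pattern over the 9 libraries was nearest to that of ID2, ID1 and HES1 were found among the 15027 genes that averaged 1 CPM or more, by the root mean square distance of log2 CPM scaled to each gene's own mean and SD. For ID2 they were LINC02966 (0.38), SLC12A5 (0.38) and ACADSB (0.38), where the median distance over all genes was 1.34. For ID1 they were DGCR6 (0.32), GNAI2 (0.32) and ZER1 (0.33), and for HES1 they were ABHD15 (0.24), INA (0.31) and MRPS16 (0.36). With 9 libraries and this many genes, close patterns are a description of these libraries, which differ in depth, plasmid group and GC slope.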

How the data were processed

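The 9 RNA-Seq libraries of H1975 cells form 3 groups of 3. The deposited values are raw counts of reads on each gene, not normalized, in the layout of STAR. The submitters' processing notes name STAR 2.7.9a, DESeq2 1.36.0 and GRCh38.p14, and the annotation release is not given in the sources used here. The unstranded column was used, as both strands held like shares. The 4 summary lines of each library, with 27.6% to 30.7% of its reads, name no gene and were left out.

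Counts were filtered by filterByExpr, normalized by TMM and fitted in 1 quasi-likelihood model of all 9 libraries with edgeR 4.0.16 (R 4.3.3). CPM values use TMM library sizes. SE is the absolute log2 fold change over the square root of F, and intervals use the same fit. A gene was called at a Benjamini-Hochberg adjusted p under 0.05, over all tested genes. The median biological coefficient of variation was 11.2%. An exact permutation test of 3 against 3 cannot go below 0.10. Limits for a count of 0 cover counting error only. Coordinates, lengths and GC content are those of GENCODE 29 (58342 of 61544 genes found).

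The members and lists were chosen with earlier results of these data known. Named genes are all members, HSPA5 and EGFR as checks, every listed gene called in any comparison, and the 3 genes nearest in pattern to ID2, ID1 and HES1. Tested on simulated data with 18653 genes, for the wild type against the mutant, edgeR found 80.3% of log2 changes of 0.5 and 99.3% of those of 1. On average 6.8% of its calls there were false, and 10.0% of those of DESeq2. The simulated libraries had no GC slope and none was made to stand apart, so these shares need not hold for the real ones. Alternatives were DESeq2 1.42.0, other scalings and filters, 2 groups only, a stricter threshold, a replicate block, a GC and length correction (loess, span 0.3) and each library left out. Added after seeing the data were DESeq2 with 2 groups only, DESeq2 without vector replicate 1, and lengths of the median coding transcript.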

Additional observations from a re-analysis of the deposited data

How the results depend on the processing

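Of the 512 values that the 19 alternatives could give for the members' 27 differences, 486 kept their direction and their side of the threshold. No member was called for F-78(WT) against the mutant under any alternative. TCF12 and USF2 were called between F-78(WT) and vector without vector replicate 1, which gives 2 members by edgeR and 2 by DESeq2, and TCF12 between F-78(NLS Mut) and vector by DESeq2 without it (1 member). Leaving out each library gave 0 to 2 called members for F-78(WT) against vector. The cause was not tested.

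Differences near 0 changed sign. Between F-78(WT) and the mutant, ID3 was -0.0085 with the replicate block and -0.14 to 0.13 over single omissions, and the same omissions gave -0.019 to 0.091 for USF1, -0.0068 to 0.084 for TGFB2 and -0.087 to 0.0063 for EGFR. Between F-78(WT) and vector, ID3 was 0.053 and TCF3 0.058 with the GC and length correction, CDH1 -0.0080 by library size alone and ID4 -0.021 by DESeq2 without vector replicate 1. Omissions there gave -0.027 to 0.098 for ID1, -0.22 to 0.13 for ID3, -0.028 to 0.097 for ID4 and -0.044 to 0.079 for CDH1. Between F-78(NLS Mut) and vector, ID3 was 0.030 and USF2 0.079 with the GC and length correction, and TCF3 -0.066 and MYC -0.053 by DESeq2 without vector replicate 1. Omissions there gave -0.23 to 0.11 for ID3, -0.073 to 0.068 for TCF3, -0.10 to 0.0070 for USF2 and -0.060 to 0.091 for MYC.

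Of the listed genes, 3 were called for F-78(WT) against the mutant, which became 7 with DESeq2, 6 without a filter, 8 with 2 groups, 11 with the GC and length correction, 9 by DESeq2 with 2 groups, 14 by DESeq2 without vector replicate 1, and 1 to 9 over omissions. Between F-78(WT) and vector, 5 became 2 with 2 groups, 3 at an adjusted p under 0.01, 20 by DESeq2 without vector replicate 1 and 2 to 18 over omissions. Between F-78(NLS Mut) and vector, 1 became 5 with DESeq2, 2 by library size alone, 4 without a filter, 2 at 1 CPM or more in every library, 4 with the GC and length correction, 0 at 0.01, 6 by DESeq2 with 2 groups, 16 by DESeq2 without vector replicate 1 and 0 to 15 over omissions. Over all genes, 94, 104 and 148 calls became 291, 256 and 414 with DESeq2, and 388, 1256 and 1002 by edgeR without vector replicate 1. Leaving out some of the other libraries lowered the calls over all genes in edgeR. The lowest were 27 without mutant replicate 2, 19 without F-78(WT) replicate 1 and 33 without mutant replicate 2. Without F-78(WT) replicate 2 the calls rose, to 136, 318 and 166. Of the calls against vector, 40 were higher and 64 lower for F-78(WT) (26 and 115 by library size alone), and 55 and 93 for the mutant (39 and 133).

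Deviations from the group means had correlations of -0.02 to 0.06 between libraries with the same replicate number, and -0.05 to 0.02 between others. Of the 9 libraries, 5 correlated best with a library of their own number. These values do not settle whether the numbers pair the samples. With the replicate block, 0 members were called in each comparison, the listed genes called were 6, 6 and 3, and 212, 232 and 230 genes were called in all. In the edgeR fit of all 9 libraries, no member's change below 0.27 on the log2 scale could have been called, and other settings called smaller ones.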
